A study of Mus musculus with 2 samples.

Results

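Nuclear genes for the mitochondrial ribosome, for protein import into mitochondria and for respiration were compared between D16 and D351, 2 clones of mouse mesoangioblasts. Mesoangioblasts are vessel-associated progenitor cells. Per the labels, the clones came from dorsal aorta of C57BL6 embryos at embryonic day 9.5, were cloned on mitomycin-treated embryonic fibroblasts and were expanded on gelatin. Each clone is 1 clone and 1 array of total RNA (Affymetrix, mouse U74 version C), so there was no replicate, no spread between samples and no test. The members were chosen by symbol and not by their values. A member is a gene whose symbol starts with Mrpl, Mrps, Nduf, Uqcr, Atp5, Sdh, Tomm, Timm, Idh3, Suclg, Cox plus a digit or Coq plus a digit, and whose probe set is annotated with that gene alone. The array held 86 such probe sets for 66 genes, of 7717 probe sets for 5928 named genes. Another 4 probe sets that list a member beside a second gene were left out.

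Mitochondria make a few subunits of the respiratory chain on their own ribosomes, whose proteins are encoded in the nucleus and imported. Translocases of the outer and inner membrane (Tomm and Timm) carry these and most other mitochondrial proteins inside. The citric acid cycle feeds electrons to respiratory complex I (Nduf) and complex II (Sdh). From there ubiquinone (Coq), complex III (Uqcr) and cytochrome oxidase (Cox) pass them to oxygen, and ATP synthase (Atp5) uses the resulting proton gradient. Growing progenitor cells need this machinery both for ATP and for building blocks.

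A value is the deposited intensity of a probe set, in arbitrary units. The floor was 6.4, the median of all values of both arrays without the control probe sets. A value at or below it was called dim and counted as 6.4 when log2 ratios were formed. A gene is represented by its brightest probe set, and it counts as measured if either clone exceeded the floor. Ratios are D351 minus D16 on the log2 scale, so values below 0 are higher in D16. Where 1 clone was dim, the fold is a lower bound, written "at least". Probe sets differ in how well they bind, so intensities are compared between clones and never between genes.

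Most measured members were not called 2-fold different between the clones, as over the whole array. Of 66 genes, 52 were measured, and 14 were dim in both. Of the 52, 39 were above the floor in both clones and 13 in 1 clone. For those 13, a called fold under 2 does not exclude a larger difference. At least 2-fold higher in D351 were 4 of the 52 (7.69%), against 10.3% of all measured named genes. At least 2-fold higher in D16 were also 4 of 52 (7.69%), against 10.2%. Neither share was above the background of the array. The 8 were Mrpl38, Tomm40, Idh3a and Suclg2 towards D351, and Mrps10, Mrpl46, Ndufs4 and Timmdc1 towards D16. The median log2 ratio of the members was -0.17, and 32 of 52 (61.5%) lay below 0. Over all 3934 measured genes the median was -0.022, with 51.0% below 0. With the arrays scaled to their hybridization controls, these medians were 0.47 and 0.59, so directions below hold for the deposited scaling. Between probe sets of 1 gene, the log2 spread per probe set was 0.67 (root mean square difference over the square root of 2, 409 genes). A ratio of -0.17 in a single gene would be small beside it. That spread does not give the precision of a median over 52 genes.

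**Figure D1:**
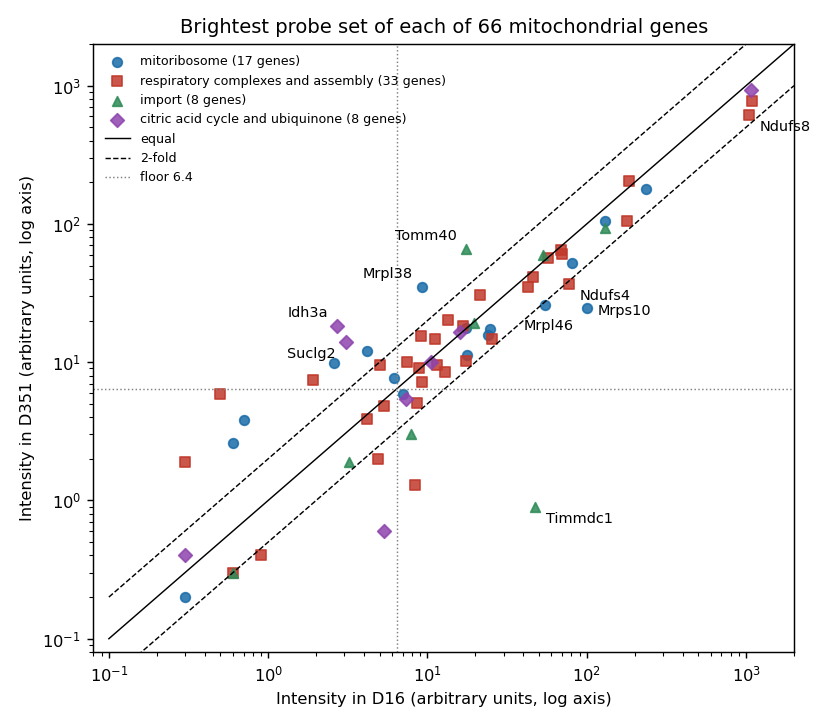
Intensity of the brightest probe set of each of the 66 member genes in D16 (x axis) and D351 (y axis), both log axes in arbitrary units, with 1 array per clone. Solid and dashed lines mark equality and 2-fold, dotted lines the floor of 6.4; most genes above the floor lie between the dashed lines, with Timmdc1, Mrps10, Tomm40 and Mrpl38 among those outside. Points with both values below 6.4 have no called ratio.

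The lean towards D16 was larger among the brighter members. With the floor raised to 20.7, the 75th percentile of all values, 25 members were measured and 20 of them lay below 0. Their median was -0.29, while that of all 2340 genes measured at this floor was -0.0053 with 50.2% below 0. Of the 25, 1 was 2-fold higher in D351 (background 7.91%) and 4 in D16 (background 8.33%). The highest of 38 values of bacterial and yeast control probe sets was 11.2, a guide to background. Among the 28 members above 11.2 in both clones, 20 lay below 0 and the median was -0.25. Of these, 1 passed 2-fold towards D351 (background 7.17%) and 3 towards D16 (background 8.82%). All genes above 11.2 in both clones had a median of -0.015, with 51.0% below 0.

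**Figure D2:**
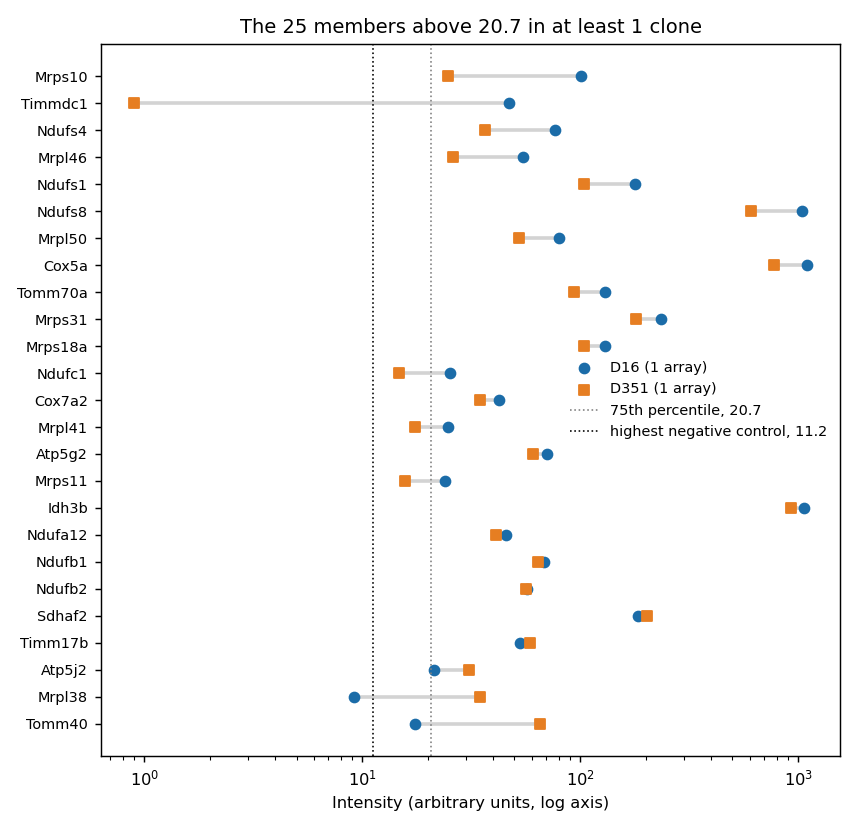
Intensities of the 25 members above 20.7 in at least 1 clone, on a log axis in arbitrary units, with circles for D16 and squares for D351 (1 array each) and a grey line between them. The D16 value lies to the right in 20 genes, and the gap is under 2-fold in all but Mrps10, Timmdc1, Ndufs4, Mrpl46, Mrpl38 and Tomm40; dotted lines mark 11.2 and 20.7, and the D351 value of Timmdc1 and the D16 value of Mrpl38 lie below both.

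Many of these values rest on probe sets with a mark (f, g, i, r or s) in their identifier, which Affymetrix uses where probes were picked by looser rules or match more than 1 transcript. The brightest probe set had a mark for 26 of the 52 measured members and for 7 of the 8 past 2-fold. Ndufs4 was the exception. Over all 3934 measured genes, 2358 had a brightest probe set without a mark. Among the 26 members whose brightest probe set had no mark, 18 lay below 0, the median was -0.29, and Ndufs4 alone passed 2-fold. All genes with an unmarked brightest probe set had a median of -0.0070. In 4 of the 8 (Timmdc1, Mrpl38, Idh3a and Suclg2) the lower value was no higher than the brightest negative control.

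Promoters of mitochondrial genes are known for binding sites of NRF1, of ETS factors such as GABPA, and of YY1. The RefSeq promoter table (assembly GRCm38.p6) held 63 windows, from 250 bases before to 50 after the start, for 56 of the 66 genes. Each window was searched on both strands for the letters GCGCATGCG (NRF1), CCGGAAG (ETS) and AAGATGGC (YY1). The ETS letters were in the windows of 22 of 56 members (39.3%), against 12.9% of 17436 other protein-coding genes and 16.3% of 4198 other protein-coding genes on this array. The YY1 letters were in 11 (19.6%), against 3.52% and 4.19%. The NRF1 letters were in 2 (3.57%), Atp5g2 and Mrpl39, against 2.61% and 3.48%. By window, the shares were 36.5%, 17.5% and 3.17%, against 8.86%, 2.75% and 1.75% of all 32851 windows in the table. A match is a description of the letters and not a site in use.

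The places of the YY1 and ETS matches were described by different measures, so the 2 kinds are not compared with each other. YY1 was counted by strand and side of the start, and ETS by distance from the start on either strand. The YY1 letters were on the gene's own strand and after the start in 8 of the 11 windows (72.7%), for example from base 12 in Mrps18a, base 23 in Ndufc1 and base 36 in Ndufs4, counting the start as 1. The same held for 40.0% of 638 windows of other coding genes with these letters. The ETS letters lay between 60 bases before and 30 after the start in 19 of 23 windows (82.6%), against 59.8% of 2436 windows. The ETS letters were in all 4 members of the complex II group, namely the subunit Sdhd and the assembly factors Sdhaf1, Sdhaf2 and Sdhaf3. The YY1 letters were in 4 of 11 complex I subunits. Members with a match to any of the 3 motifs had a median log2 ratio of -0.19 (23 measured genes) and those without one -0.28 (21 genes). The members in both groups thus leaned the same way.

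The stretches below show matches beside members that the results turn on. Each runs 5′ to 3′ on the gene's strand from 60 bases before to 30 after the start, from RefSeq GRCm38.p6, with the matched letters in capitals. Timmdc1 and Ndufs8 hold ETS letters, Ndufc1 YY1 letters, Mrps18a both and Atp5g2 NRF1 letters. Mrps10 and Tomm40, the members with the largest ratios in each direction above 11.2 in both clones, had no match in the whole window.
Timmdc1, chr16:38522634-38522723, minus strand: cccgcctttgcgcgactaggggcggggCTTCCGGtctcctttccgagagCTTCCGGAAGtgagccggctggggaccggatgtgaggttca
Ndufs8, chr19:3912745-3912834, minus strand: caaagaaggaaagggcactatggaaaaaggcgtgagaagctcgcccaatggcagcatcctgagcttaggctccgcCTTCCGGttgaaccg
Ndufc1, chr3:51408926-51409015, minus strand: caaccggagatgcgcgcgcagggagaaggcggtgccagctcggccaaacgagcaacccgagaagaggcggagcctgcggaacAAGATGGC
Mrps18a, chr17:46110944-46111033, plus strand: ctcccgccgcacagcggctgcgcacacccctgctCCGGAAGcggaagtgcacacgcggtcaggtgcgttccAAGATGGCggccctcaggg
Atp5g2, chr15:102671018-102671107, minus strand: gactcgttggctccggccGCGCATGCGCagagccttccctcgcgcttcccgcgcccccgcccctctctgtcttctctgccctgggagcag
Mrps10, chr17:47369137-47369226, plus strand: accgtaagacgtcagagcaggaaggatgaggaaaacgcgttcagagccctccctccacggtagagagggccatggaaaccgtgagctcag
Tomm40, chr7:19715400-19715489, minus strand: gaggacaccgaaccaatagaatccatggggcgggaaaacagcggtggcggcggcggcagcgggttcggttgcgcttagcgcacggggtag

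Genes with Mrps symbols were grouped as the small subunit of the mitochondrial ribosome. All 7 were measured and 6 lay below 0 (51.0% of all genes), with a median of -0.39. When the hybridization controls set the scaling, the median was 0.25, against 0.59 for all genes. A single gene passed 2-fold towards D16, as did 10.2% of all genes. Mrps10, which has a counterpart in bacterial ribosomes, gave 100.7 in D16 against 24.7 in D351, a 4.08-fold difference. Mrps31 read 235.9 and 179.6 by its brightest probe set, while another read 20.0 and 24.2, so its probe sets differed in direction. Mrps18a, whose product sits in the large subunit despite its name, read 130.4 in D16 and 104.6 in D351. Mrps11 read 23.9 and 15.7 and Mrps23 17.8 and 11.2, 1.52-fold and 1.59-fold higher in D16. By their brightest probe sets these 5 genes leaned the same way, but only Mrps10 by more than 2-fold. Mrps5 (7.0 and 5.9) and Mrps21 (6.2 and 7.7) were near the floor.

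Large-subunit genes divided by clone. Of 10 genes 7 were measured, 3 below 0 and 4 above, with a median of 0.033. Mrpl46 gave 54.5 in D16 against 26.1 in D351, a 2.09-fold difference. Mrpl38 gave 9.2 in D16 against 34.9 in D351, which is 3.79-fold, or at least 1.69-fold with the higher floor. Both are proteins of the large subunit, and they lay on opposite sides. Mrpl50 read 80.2 and 52.2 and Mrpl41 24.8 and 17.5, 1.54-fold and 1.42-fold higher in D16. Mrpl15 read 17.4 and 17.8, and its second measured probe set 6.4 and 8.0. Mrpl3 (4.2 and 12.0) and Mrpl39 (2.6 and 9.9) were above the floor in D351 alone. Mrpl35, Mrpl48 and Mrpl54 were dim in both clones.

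Mrpl46 and Mrps11, a large-subunit and a small-subunit gene, are neighbours on opposite strands with starts 42 bases apart. Both were higher in D16, with log2 ratios of -1.06 and -0.61. The pair was looked for after these values had been seen. The stretch below gives the plus strand, on which Mrps11 lies, of chr7:78783060-78783160 (RefSeq GRCm38.p6), with the bases from the start of Mrpl46 to the start of Mrps11 in capitals.
Shared start region: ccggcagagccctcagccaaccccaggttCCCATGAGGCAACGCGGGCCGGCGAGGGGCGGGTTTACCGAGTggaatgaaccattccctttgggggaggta
Of 12 member pairs with starts facing away from each other within 300 bases, 4 had both genes on the array. Cox11 and its neighbour Stxbp4 lay on opposite sides, at -0.77 and 0.58, with Stxbp4 at 82.4 in D16 and 123.0 in D351. In the other 2 pairs at least 1 gene was dim in both clones, namely Atp5md beside Pdcd11 and Fam161b beside Coq6. A shared start region thus went with 1 pair on the same side and 1 on opposite sides.

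**Figure D3:**
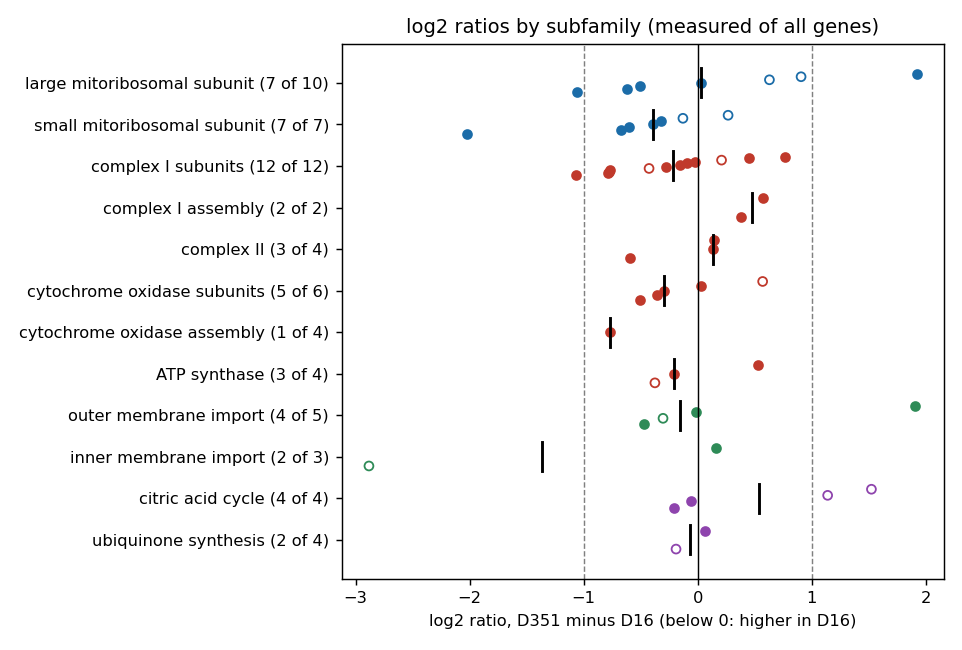
Log2 ratio (x axis, D351 minus D16) of each measured member by subfamily, with the measured and total number of genes in brackets. Filled points are genes above the floor in both clones, open points lower bounds, black bars subfamily medians and dashed lines 2-fold. Below 0 lie 6 of 7 genes of the small-subunit group (Mrps symbols) and 9 of 12 complex I genes.

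Of the complex I subunits, all 12 were measured and 9 lay below 0 (51.0% of all genes), with a median of -0.22. When the hybridization controls set the scaling, it was 0.46, against 0.59 for all genes. One gene, Ndufs4, passed 2-fold towards D16 (10.2% of all genes) and none towards D351 (10.3%). Ndufs8 and Ndufs1 carry iron-sulphur clusters of the electron path. Ndufs8 read 1040.0 in D16 against 610.8 in D351, 1.70-fold apart. Ndufs1 read 178.6 and 104.2 by 1 probe set (1.71-fold) and 112.9 and 96.3 by another, both towards D16. Ndufs4, an accessory subunit whose loss impairs complex I, gave 76.8 in D16 against 36.7 in D351, a 2.09-fold difference by an unmarked probe set. Ndufs4 and Mrpl46 fell short of 2-fold with scaling to the hybridization controls (log2 ratio -0.39 for each) and with a pseudocount (-0.95 and -0.91). All 3 of these Ndufs genes were thus higher in D16. Ndufc1 read 25.4 and 14.7, 1.73-fold higher in D16. Ndufa12 (45.9 and 41.2), Ndufb1 (68.6 and 64.4) and Ndufb2 (57.0 and 56.2), accessory subunits, differed by at most 1.11-fold. Of the dimmer genes, Ndufa9 (9.1 and 15.5), Ndufb8 (7.4 and 10.1) and Ndufb6 (1.9 and 7.4) were the 3 above 0, and Ndufa6 (11.5 and 9.5) and Ndufab1 (8.6 and 5.1) lay below.

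Factors that assemble complex I did not share 1 direction. Ndufaf6 read 13.5 in D16 and 20.1 in D351, and Ndufaf3 11.2 and 14.6, both higher in D351 by under 1.5-fold. Timmdc1 carries the name of the inner membrane translocases but is known to help assemble the membrane arm of complex I. It gave 47.2 in D16 against 0.9 in D351, at least 7.38-fold apart, or at least 2.28-fold with the higher floor. This was the largest ratio among the members, from a single marked probe set.

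In complexes II to V no measured gene was called 2-fold different. Cox7b2 and Atp5d were dim in 1 clone, so their folds, at least 1.48 and at least 1.30, do not exclude a larger difference. Cox5a, a nuclear-encoded subunit of cytochrome oxidase, read 1096.5 in D16 against 772.4 in D351, 1.42-fold apart. Cox7a2, the isoform of non-muscle tissues, read 42.5 and 34.7. Cox6b2 (8.9 and 9.1), Cox7b2 (5.0 and 9.5) and Cox8c (9.2 and 7.2), known as testis isoforms, were all below the highest negative control. Cox11, which delivers copper to the enzyme, read 17.4 and 10.2, 1.71-fold higher in D16. Of complex II, Sdhaf2, which helps attach the flavin, read 184.4 in D16 and 203.6 in D351. Its second probe set read 23.5 and 16.7, so the direction depended on the probe set. Sdhaf1 read 16.6 and 18.2, and the membrane anchor Sdhd 12.8 and 8.5. Of ATP synthase, Atp5g2, a gene for the ring subunit c, read 70.2 and 60.8, Atp5j2 21.3 and 30.8, and Atp5d 8.3 and 1.3. Dim in both clones were Uqcrh, the only complex III gene, with Cox6b1, Cox16, Cox18, Cox20, Sdhaf3 and Atp5md.

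Leaving out Timmdc1, described above, Tomm40 was the only import gene past 2-fold (10.3% of all genes towards D351). Tomm40, the pore of the outer membrane translocase, gave 17.5 in D16 against 65.6 in D351, which is 3.75-fold, or at least 3.17-fold with the higher floor. Its single probe set had a mark. Of the receptors of the same translocase, those measured differed by under 2-fold. Tomm70a read 130.1 in D16 against 94.0 in D351, 1.38-fold apart. Tomm22 read 19.5 and 19.3, and Tomm20 was dim in both clones, so its ratio is unmeasured. Tomm40l, a relative of Tomm40, read 7.9 and 3.0. It was dim in D351, so its fold of at least 1.23 does not exclude a larger difference. Timm17b, a subunit of the inner membrane translocase, read 53.1 and 59.2, and Timm50 was dim in both.

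Genes of the citric acid cycle and of ubiquinone synthesis mostly had low signals. Isocitrate dehydrogenase is built from 3 gene products, of which Idh3a alone passed 2-fold. Idh3b read 1069.4 in D16 against 927.2 in D351, 1.15-fold apart, and Idh3g 10.5 and 10.1. Idh3a, the catalytic subunit, read 2.7 in D16 against 18.4 in D351, at least 2.88-fold apart by a marked probe set. The other Idh3a probe set was dim in both clones (2.1 and 3.7). Suclg2, the GTP-linked subunit of succinyl-CoA ligase, read 3.1 and 14.1, at least 2.20-fold higher in D351. Both were under 20.7 in each clone, so neither counts with the higher floor. Coq8b read 15.9 and 16.6 by its brightest probe set but 5.1 and 19.8 by its unmarked one (log2 ratio at least 1.63), the largest disagreement among the 6 members with a second measured probe set. Coq6 read 7.3 and 5.4, and Coq3 and Coq8a were dim in both clones.

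The 9 lists of related genes together held 57 genes on this array, of which 44 were measured. Of the 44, 32 (72.7%) lay below 0 with a median of -0.20, against 51.0% and -0.022 over all genes. Of the 44, 4 were 2-fold higher in D16 (10.2% of all genes) and 1 in D351 (10.3%), neither above the background. In mitochondrial DNA upkeep and transcription, 5 of 6 measured genes lay below 0 (median -0.64; 51.0% and -0.022 over all genes), and 2 passed 2-fold towards D16 (10.2% of all genes). They were Mterf3, a repressor of mitochondrial transcription, at 18.7 in D16 and 8.6 in D351, and Ptcd2, at 22.8 and dim in D351. Tfam, which packs mitochondrial DNA, read 105.7 and 95.6. Among translation factors and ribosome assembly genes, 6 of 9 lay below 0 (median -0.18). Gfm1, an elongation factor of mitochondrial ribosomes, gave 55.7 in D16 against 19.5 in D351, a 2.86-fold difference.

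Of the regulators, Ppargc1b, a coactivator that drives mitochondrial genes, gave 371.1 in D16 against 113.8 in D351, a 3.26-fold difference. Gabpb1, the partner of GABPA, read 560.5 and 477.6, and Gabpb2 15.0 and 16.6. Gabpa itself was dim in both clones, which leaves its level unmeasured. In other import and protease genes, 6 of 8 lay below 0 (51.0% of all genes), with a median of -0.31. Mipep read 76.3 and 57.3 and Chchd4 57.4 and 34.8. In respiratory assembly, Acad9 was dim in D16 and read 60.4 in D351, at least 9.44-fold higher in D351. This was by the brightest of its 2 measured probe sets, a marked one, and the other was not compared. Sco1 read 92.4 and 66.0. The 4 measured genes of the list for the citric acid cycle and pyruvate dehydrogenase lay below 0 (median -0.30). None is an enzyme of the mitochondrial cycle itself, and Mdh1 encodes the cytosolic malate dehydrogenase. The brightest were Pdhb at 188.1 and 187.0 and Me3 at 30.4 and 28.2, both close to 0, while Mdh1 read 23.2 and 16.4 and Pdk3 10.2 and 4.1, at least 1.59-fold higher in D16. Of iron-sulphur and haem genes, 3 of 4 lay below 0 (median -0.19), with Lyrm4 at 165.1 and 188.3 and Isca1 at 36.9 and 34.2. Fusion and fission genes were near 0 (6 measured, median -0.054), with Fis1 at 1174.1 and 1149.8 and Mfn2 at 274.3 and 259.3. Hadhb, the only fatty acid oxidation gene, read 15.7 in D16 and 22.6 in D351.

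**Figure D4:**
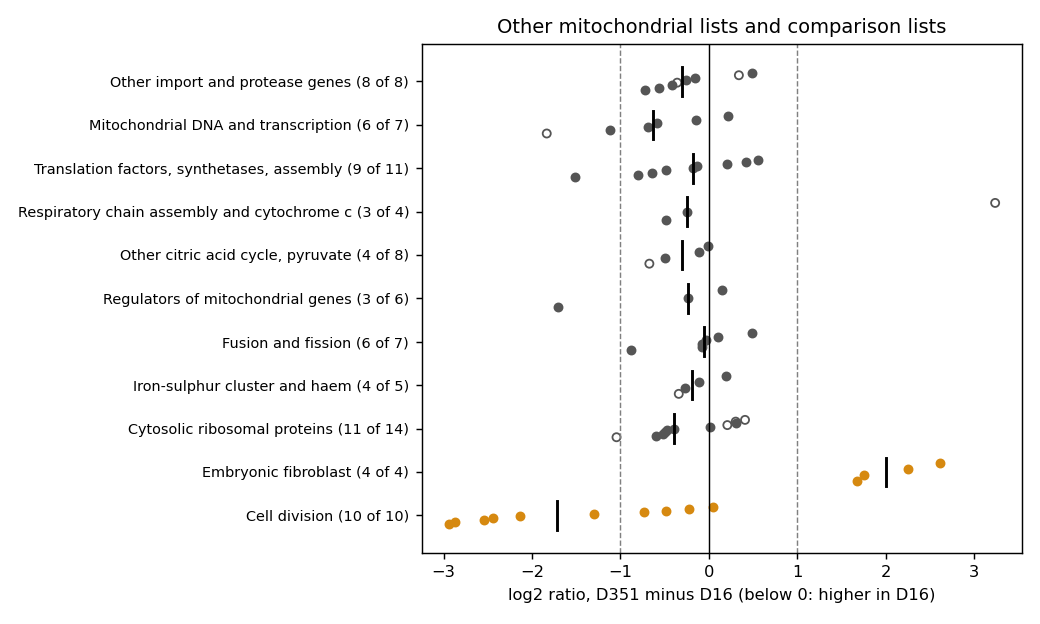
Log2 ratio (x axis, D351 minus D16) of measured genes in other mitochondrial lists and cytosolic ribosomal proteins (grey) and in the fibroblast and cell division lists (orange), with the measured and total number on the array in brackets; filled points are ratios, open points lower bounds, black bars medians and dashed lines 2-fold. The mitochondrial medians shown lie between -0.64 and -0.054, the fibroblast median at 2.00 and the cell division median at -1.72. Both orange lists hold genes listed with their values known.

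Lists of other kinds were described in the same way. Of 14 cytosolic ribosomal protein genes, 11 were measured, with a median of -0.39. Of the 11, 6 lay below 0 (51.0% of all genes), near the share of the array. Rpl10l, at 13.2 in D16 and dim in D351, was the 1 gene past 2-fold (10.2% of all genes towards D16). Of the cell division list, 9 of 10 genes lay below 0 (51.0% of all genes), with a summed intensity of 1082 in D16 and 442 in D351. Ccnd1, Cenpn, Dut, Pold1 and Stil were listed with their values known, so this count and sum rest partly on known values. Without them 4 of 5 lay below 0 (median -0.48), and 1 of 5 passed 2-fold towards D16 (10.2% of all genes). All 4 measured embryonic fibroblast markers, the cell type of the feeder layer, were at least 2-fold higher in D351 (10.3% of all genes). They were also listed with known values, and they summed to 654 in D16 and 2355 in D351. No fibroblast or cell division gene on the array was at 0. The part of these differences in the members' ratios was not tested. In such bulk RNA, fewer cells of a type and less RNA per cell cannot be told apart. Of smooth muscle markers, the fate the labels name, 4 of 5 were at least 2-fold higher in D351 (10.3% of all genes). Flnc was at least 2-fold higher in D16 (10.2% of all genes), while Acta2 was dim in D16 and read 15.4 in D351. Of the endothelial markers on the array, Flt1 and Kdr were dim in D16 and Egfl7 in D351.

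The direction of the members depended on how the arrays are scaled. Trimmed by 2% at each end, the mean intensity came to 20.01 for each clone, but 9 hybridization control probe sets were brighter in D16 (median log2 ratio -0.67, from -0.83 to -0.60). Scaled to these controls, the median of all genes moved to 0.59 and that of the members to 0.47. The members then had 10 genes 2-fold higher in D351 and 2 in D16, against 27.6% and 3.64% of all genes. Relative to all genes the members lay lower by 0.15 as reported and by 0.12 with this scaling.

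**Figure D5:**
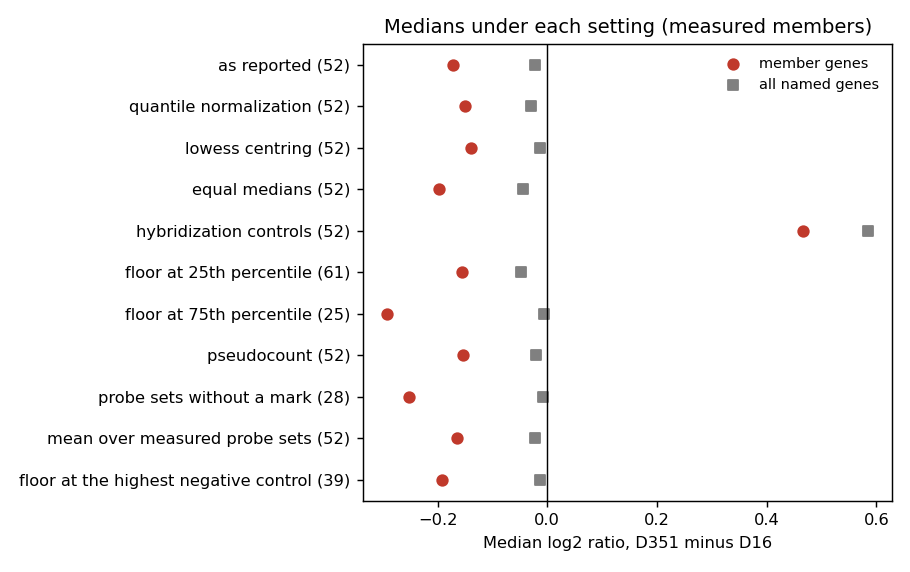
Median log2 ratio (x axis, D351 minus D16) of the measured members (circles) and of all measured named genes (squares) under each setting, with the number of measured members in brackets. The members lie left of all genes under each of the 11 settings shown, and both medians move above 0 with scaling to the hybridization controls.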

How the data were processed

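Total RNA of 2 mesoangioblast clones was hybridised to 1 array each. The deposited values are intensities per probe set, already summarised from the probes by the authors. Their software and scaling were not given in the sources used here. Probe sets were named from the platform annotation kept with the data, and symbols were checked against RefSeq. Of 11868 probe sets without controls, 7717 had 1 gene, 150 several and 4001 none; only those with 1 gene were used. Ratios, the floor and the 2-fold rule were computed with Python 3.11.15, numpy 2.4.6 and pandas 2.3.3, and figures with matplotlib 3.10.9. The calculations were tested on simulated data. No depth applies to arrays, and 1 array per clone limits the precision.

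The members, lists and rules were chosen with earlier results of these data known, so the cell division and fibroblast lists support nothing. Named genes were all members past 2-fold, the brightest and most different of each subfamily, members whose probe sets differed by over 1 log2 unit, and leading genes of related lists; all other members are given with values. Alternatives changed the scaling, the floor, the probe sets and the fold rule. A floor at the highest negative control was added after seeing the data. Protein lengths and charges were planned but not analysed here.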

Additional observations from a re-analysis of the deposited data

How the results depend on the processing

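Each clone had 1 array, so no setting has a test. A median counts as moved when it changed by more than 0.67 (the log2 spread between probe sets of 1 gene) over the square root of its number of genes, and a count when it changed by over 1.5 times. These limits only sort the settings, which reuse the same values, and do not give the precision of a median. No paired analysis was possible because each clone had 1 array. For the members' median and counts and the medians of the large and small subunits, complex I and cytochrome oxidase, 51 values under the alternatives stayed within these limits and 21 moved. For the smaller subfamilies 61 stayed and 14 moved. No gene past 2-fold changed sign, but medians did. Below, the cause was not tested unless the setting itself gives it.

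Scaled to the hybridization controls, all genes shifted to a median of 0.59; the members had a median of 0.47 with 10 genes past 2-fold towards D351 and 2 towards D16, and all these medians were above 0, at 0.71 for the large subunit, 0.25 for the small subunit, 0.46 for complex I and 0.38 for cytochrome oxidase. A floor at the 25th percentile gave 9 and 8 genes past 2-fold and a large-subunit median of 0.53. A floor at the 75th percentile, with fewer genes measured, gave a median of -0.29, 1 gene towards D351 and a large-subunit median of -0.44. A pseudocount left 2 genes towards D16. Under this setting, and under the control scaling, the genes that dropped below 2-fold were Mrpl46 and Ndufs4. Probe sets without a mark (28 members) gave 1 gene each way and a large-subunit median of -0.24. The 3-fold rule left 2 genes each way. A floor at the highest negative control, chosen after seeing the data, left 2 genes towards D351 and a large-subunit median of -0.24. The large-subunit median, 0.033 as reported, was thus below 0 under the 3 settings with a higher floor or without marked probe sets, and also with quantile normalization (-0.0082).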

Other observations

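Of the glycolysis genes listed beside the mitochondrial ones, 2 were on the array. Pfkfb2, which makes an activator of glycolysis, read 14.7 in D16 and 30.2 in D351, and Pkm, pyruvate kinase, read 149.9 in D16 and 109.3 in D351. They lay on opposite sides. Itga2b, the only blood marker on the array, read 38.7 in D16 and 49.9 in D351.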
